A study of Mus musculus with 6 samples.

Results

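The genes described here encode the secreted ligands of the bone morphogenetic protein (BMP) and transforming growth factor beta (TGF-beta) families, their receptors, their antagonists and the proteins that store latent TGF-beta. They were taken from a list of 37 genes, of 21887 protein-coding genes in all. The peaks counted were those with a summit within 50 kb of the gene interval, on mm10. The list holds 16 genes under the ligand heading, 10 receptors, 7 antagonists and 4 latent binding proteins. Bmp1 stands with the ligands by its name, although it encodes a metalloprotease that cleaves procollagen and chordin.

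The peaks come from ChIP-seq of GLI3R, the repressor form of the Hedgehog transcription factor GLI3, in mouse embryonic stem cells differentiated into cardiac progenitors. All cells were of the GLI3R-FTA line in the A2Lox.cre background, which carries a tagged GLI3R that doxycycline induces, and were collected on day 6. One condition was left untreated and the other received 500 ng/ml doxycycline for 24 h from day 5, so the untreated cells carry the same transgene. Each condition had 2 streptavidin pull-downs and 1 input, but 1 peak list, so no peak has a replicate error and the values below compare lists rather than replicated conditions. A single cell line was used, and the induced protein is a transgene product.

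BMP and TGF-beta ligands are dimers that bring together type I and type II serine/threonine kinase receptors, which phosphorylate SMAD transcription factors. Antagonists such as noggin, chordin and gremlin bind the ligands outside the cell, and latent TGF-beta binding proteins hold the inactive TGF-beta complex in the extracellular matrix. In the early embryo BMP signals promote the cardiac fate of mesoderm, and TGF-beta signals act later in valve formation and in the outflow tract.

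Doxycycline-list summits lay near most of the 7 antagonist genes listed here and near none of the 10 receptor genes listed here. Of the 7 antagonists, 6 had a doxycycline summit within 50 kb (85.7%, exact 95% Clopper-Pearson interval 42.1 to 99.6). Among the 21887 protein-coding genes 20.0% had one. Of the 10 receptors, 0 did (interval 0 to 30.8%), a range that includes the 20.0% of all genes. Ligands had 7 of 16 (43.8%, 19.8 to 70.1) and latent binding proteins 2 of 4. Over the whole list this came to 15 of 37 genes (40.5%, 24.8 to 57.9). The pattern by role holds for these members only. Of 9 further antagonists outside the list, 1 had a doxycycline summit in range (11.1%), and of 9 further receptors and coreceptors, 2 did (22.2%).

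The untreated list gave another distribution over the roles. There 10 of the 37 genes had a summit within 50 kb (27.0%, 13.8 to 44.1), against 18.8% of all protein-coding genes. These were 5 ligands, 2 receptors, 1 antagonist and 2 latent binding proteins. The receptor count (20.0%) was near the share of all genes, and the antagonist count (14.3%, 0.361 to 57.9) had an interval that includes it. The intervals cover counting error only and treat genes as independent. No test was made of the list or of its roles, since the members were chosen with results of these data known.

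**Figure D1:**
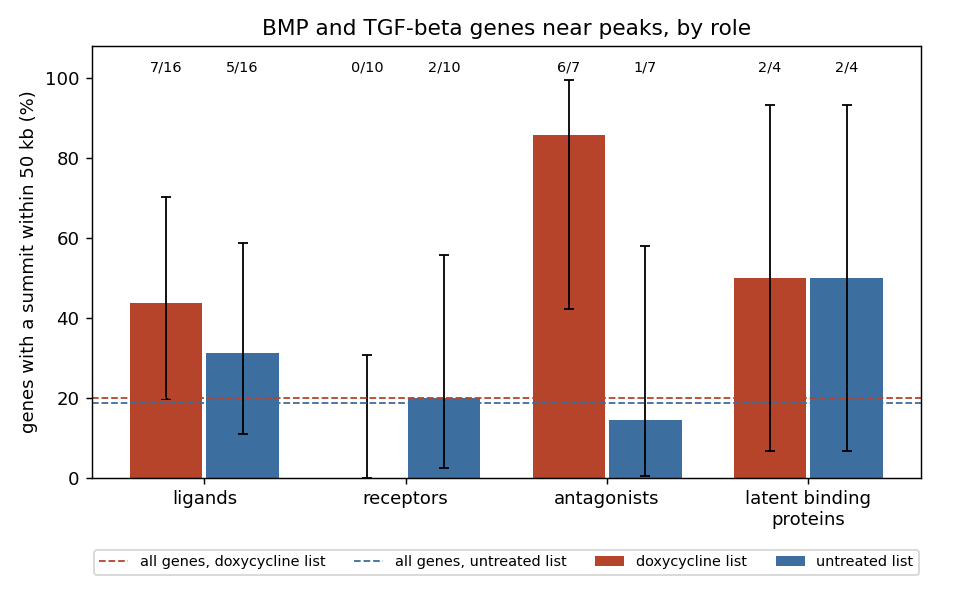
Share of genes (%) with a summit within 50 kb, by role, in the doxycycline and the untreated list; bars are shares, error bars are exact 95% Clopper-Pearson intervals, fractions above give genes counted, and dashed lines mark all protein-coding genes. Antagonists reach 6 of 7 in the doxycycline list and 1 of 7 in the untreated list, and receptors 0 of 10 and 2 of 10.

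Membership in the lists can be read gene by gene. Both lists had a summit within 50 kb of Bmp6, Bmp7, Gdf6, Tgfb1, Ltbp1 and Ltbp4 (6 of 37, 16.2%, against 4.97% of all protein-coding genes). Only the doxycycline list had one for Bmp3, Gdf5, Tgfb2, Nog, Chrd, Grem1, Fst, Fstl3 and Bambi (9 of 37, 24.3%, against 15.1%). Only the untreated list had one for Bmp2, Tgfbr2, Tgfbr3 and Bmper (4 of 37, 10.8%, against 13.9%). The other 18 had none in either list (48.6%, against 66.1%). None of the 18 doxycycline peaks near members overlapped an untreated peak by 1 bp or more. Overlap was rare in the whole list, at 73 of 3640 doxycycline peaks, so nothing about the members is read from this.

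Promoter sequences were available for 26 of the 37 members, and Tgfb1 alone had a doxycycline summit inside its sequence. Tgfb1 encodes the TGF-beta ligand best known for its control of growth and matrix production. The 250 bases before its start site, chr7:25686752-25687001 on the plus strand, are given below from RefSeq (GRCm38.p6, the assembly of mm10). Capitals mark the 141 bases inside the doxycycline peak, which runs from 164 to 24 bases before the start site with its summit 105 bases before it.

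Tgfb1: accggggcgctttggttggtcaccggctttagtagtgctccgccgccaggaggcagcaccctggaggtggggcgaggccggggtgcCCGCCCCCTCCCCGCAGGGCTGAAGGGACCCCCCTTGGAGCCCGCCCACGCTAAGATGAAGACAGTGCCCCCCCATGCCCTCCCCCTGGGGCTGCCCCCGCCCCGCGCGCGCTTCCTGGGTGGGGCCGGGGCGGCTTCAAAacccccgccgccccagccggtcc

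The bases inside the peak are 75.9% G or C, and the whole stretch of 250 bases is 75.2%. The median in the 250 bases before the start sites of all promoters in the table was 55.6%. The GLI consensus site, GACCACCCA or its reverse complement TGGGTGGTC, was searched on both strands. It was not in this window without a mismatch. With 1 mismatch allowed there was 1 match, TGGTTGGTC, from 238 to 230 bases before the start site, which is outside the peak. The promoter table matched 26 of the 37 members, with 32 windows of 300 bases (250 before and 50 from the start site on). Bmp1, Bmp2, Bmp3, Bmp7, Gdf5, Gdf6, Tgfb3, Tgfbr3, Nog, Fst and Bambi were not matched. Of the 26, 0 held the exact site and 1, Tgfb1, held it with 1 mismatch. Of the 17492 protein-coding genes in that table, 0.212% held the exact site and 7.77% held it with 1 mismatch. Over their 21263 promoter windows the shares were 0.179% and 6.71%. Of the 26 members, Tgfb1 alone had a doxycycline summit inside a window, where 0.377% of 17492 genes did, and 0 had an untreated summit there (0.0172% of genes).

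Among the ligands, Tgfb1 was the only gene with more than 1 doxycycline summit. The peak at its start site (chromosome 7, 25686838 to 25686978) was enriched 5.85-fold, with a −log10 q of 4.17 and 7 fragments over the summit. A second doxycycline peak inside the gene (25688458 to 25688635) reached 5.04-fold with 6 fragments. Its untreated peak, at 3.93-fold with 4 fragments, lay 18.9 kb from the gene and 0.0270 kb from Exosc5, a subunit of the RNA exosome. Fold, −log10 p and −log10 q are the authors' values for single peaks, and fragments (the pileup) were worked back from them.

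The BMP ligands had 1 doxycycline peak at most. The one near Bmp7, a ligand required for kidney and eye development, was the strongest by −log10 q (6.03) at 6.95-fold and 9 fragments, and lay 18.4 kb from the gene (chromosome 2, 172958668 to 172958889). In the untreated list a 4.72-fold peak of 5 fragments lay inside Bmp7. Bmp6, which encodes a close relative of this ligand, had a 5.85-fold doxycycline peak of 7 fragments inside the gene. Its untreated peak was 22.9 kb away at 3.93-fold. Bmp3, which encodes an atypical ligand that antagonises other BMPs, had a 5.12-fold doxycycline peak of 6 fragments inside the gene and none in range in the untreated list.

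Gdf5 and Gdf6, ligands of joint formation, each held a doxycycline peak inside the gene. It reached 5.56-fold with 7 fragments in Gdf5 and 5.12-fold with 6 fragments in Gdf6. The summits lay 1.42 kb and 1.32 kb from an end of the gene, in genes of 4.34 kb and 18.0 kb. No summit inside a gene as short as Gdf5 can lie far from an end. Gdf6 also had an untreated peak of 5 fragments 2.91 kb from the gene, and Gdf5 had none. Tgfb2, the TGF-beta ligand most closely tied to heart valve and outflow tract development, had a 5.85-fold doxycycline peak of 7 fragments at 5.04 kb, and the nearest untreated summit was 806 kb away.

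Bmp2, Bmp4, Bmp10 and Nodal had no doxycycline summit in range, as was so for most protein-coding genes (20.0% had one). Bmp2 had 1 untreated peak, at 6.29-fold with 7 fragments and 10.4 kb away, while its nearest doxycycline summit was 72.8 kb away at 12.4-fold. Bmp4 had neither, with the nearest doxycycline summit 348 kb away. Bmp10, a ligand of the trabecular myocardium, had its nearest at 186 kb, and Nodal, which patterns the left-right axis, at 120 kb. Bmp1, Bmp5, Tgfb3, Inhba and Inhbb also had none in either list, with the nearest doxycycline summit between 98.9 kb (Inhba) and 477 kb (Inhbb) away.

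The receptors were mostly long genes, and none had a doxycycline summit in range. Their median length was 90.7 kb, against 9.39 kb for the antagonists and 17.2 kb for all protein-coding genes. Of the 10, 8 fell into the longest quartile of genes (over 44.3 kb), where 29.2% of genes had a doxycycline summit within 50 kb. The type I receptors were Bmpr1a, Bmpr1b, Acvr1, Acvr1b and Tgfbr1, and the nearest doxycycline summits lay from 90.7 kb (Acvr1) to 1062 kb (Bmpr1a) away. Of the type II receptors Bmpr2, Acvr2a, Acvr2b and Tgfbr2, Bmpr2 was nearest to one, at 81.0 kb. Tgfbr3, the coreceptor betaglycan, came closest to the limit, with a 9.50-fold doxycycline summit 54.5 kb away.

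The untreated list had peaks at a pair of TGF-beta receptors. Tgfbr2 held a peak of 6.29-fold and 7 fragments, with a further peak of 5.50-fold at 34.4 kb that lay inside the neighbouring gene Gadl1. Tgfbr3 held peaks of 4.64-fold and 3.87-fold, with 5 and 4 fragments. The remaining 8 receptors had no summit within 50 kb in either list.

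Of the 7 antagonists, 6 had a doxycycline summit in range and 1 an untreated one, beside 20.0% and 18.8% of all genes. Nog, which encodes the BMP antagonist noggin, had 2 doxycycline peaks and no other protein-coding gene within 50 kb. The stronger (chromosome 11, 89300126 to 89300285) reached 6.58-fold, with a −log10 q of 5.34 and 8 fragments, and its summit was 0.423 kb from the end of the gene interval. The weaker (89298391 to 89298713) reached 5.12-fold with 6 fragments at 2.18 kb. The nearest untreated summit was 79.1 kb away.

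Fstl3, a follistatin-like protein that binds activin, carried the strongest doxycycline peak of this group. The peak (chromosome 10, 79777338 to 79777594) reached 8.04-fold, a −log10 q of 7.95 and 10 fragments, with the summit 188 bases after the annotated start site. In its own list it ranked 428 of 3640 by −log10 q. The gene lies in a dense stretch with 7 other protein-coding genes within 50 kb, among them Palm and Hcn2. Fst, which encodes the activin antagonist follistatin, had a 5.12-fold doxycycline peak of 6 fragments at 7.07 kb and no other gene within 50 kb.

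At the other antagonists the assignment or the strength of the peak was weaker. The 6.58-fold peak of 8 fragments at 25.8 kb from Grem1, the gremlin gene, lay inside Scg5. The peak 3.77 kb from Chrd, the chordin gene, lay inside Thpo, the thrombopoietin gene, and had 4.39-fold enrichment with 5 fragments. Bambi, which encodes a pseudoreceptor without a kinase domain, had a 4.39-fold peak of 5 fragments at 18.0 kb, with no other gene within 50 kb. A pileup of 5 was the smallest in the doxycycline list. Counting the nearest gene only left 4 of the 7 antagonists (9.82% of all genes), namely Nog, Fst, Fstl3 and Bambi. A pileup of at least 7 left 3 (11.9% of all genes), namely Nog, Grem1 and Fstl3. With summits within 100 kb the untreated list had 4 of the 7 antagonists (30.2% of all genes), and the doxycycline list still 6 (31.3%).

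Bmper, a BMP-binding endothelial regulator, was the exception among the antagonists. It is the longest of them at 262 kb, and the nearest doxycycline summit was 1095 kb away. In the untreated list it had 2 peaks, each of 4.72-fold and 5 fragments, of which 1 was inside the gene and 1 was 14.2 kb away.

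The latent binding proteins held the 2 largest pileups near any member. Ltbp1, which anchors latent TGF-beta in the matrix, had a doxycycline peak (chromosome 17, 75004888 to 75005054) of 21.2-fold, a −log10 q of 38.3 and 28 fragments. Its summit lay 0.521 kb outside the gene interval and 570 bases before the nearest start site used for its promoter windows. It ranked 32 of 3640 in its list. The untreated list had a 6.29-fold peak of 7 fragments inside Ltbp1, 31.3 kb from that end of the gene.

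Ltbp4, a latent binding protein of elastic tissue, had 2 doxycycline peaks, both nearer to other genes. The stronger, of 9.50-fold and 12 fragments, was 19.3 kb from Ltbp4 and 3.70 kb from Numbl. The weaker, of 5.68-fold and 7 fragments, was 49.1 kb away and inside Coq8b. In the untreated list Ltbp4 held a peak of 7.07-fold and 8 fragments inside the gene, the strongest untreated peak near any member, and another of 4.72-fold at 49.8 kb inside Sptbn4. Ltbp2 and Ltbp3 had none in range, and the doxycycline summit nearest to Ltbp3 was 55.6 kb away at 8.04-fold.

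**Figure D2:**
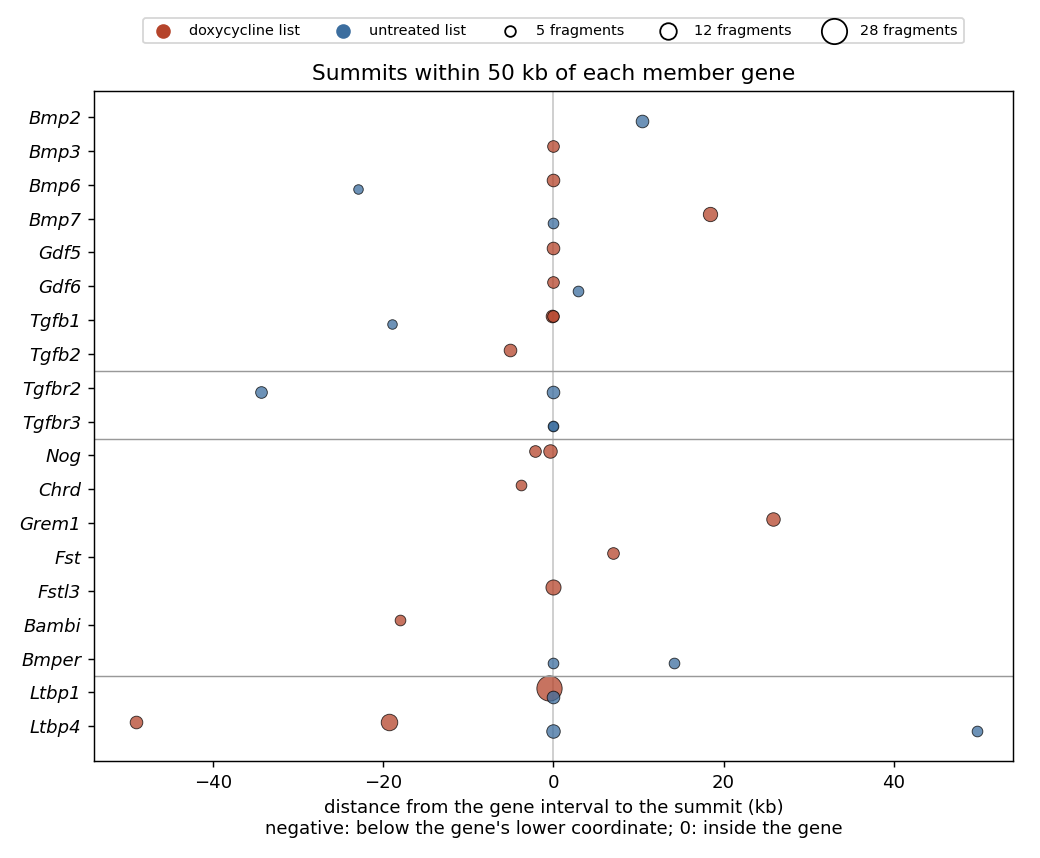
Distance (kb) from the gene interval to each summit within 50 kb for the 19 members that had one, with 0 for summits inside the gene, colours for the list, point area for fragments over the summit, and grey lines between ligands, receptors, antagonists and latent binding proteins. Red points stand at 6 of 7 antagonists and at no receptor, and the largest is the peak of 28 fragments at Ltbp1.

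The density of summits takes the length of the genes into account. The windows of the 37 genes, with 50 kb on either side, cover 6.34 Mb and held 18 doxycycline summits. That is 2.84 per Mb (exact 95% Poisson interval 1.68 to 4.49), against 1.53 per Mb in the windows of all protein-coding genes. Antagonist windows had 6.95 per Mb (2.80 to 14.3, 7 summits in 1.01 Mb) and ligand windows 3.57 (1.54 to 7.03). Receptor windows had 0 in 2.16 Mb, with an interval up to 1.71 that includes the 1.53 of all genes. No deficit at the receptors can be read from windows of this size. The untreated list gave 14 summits, 2.21 per Mb (1.21 to 3.70), against 1.62 for all genes, and each role's interval included that value.

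The share of protein-coding genes near a doxycycline summit was lower in the quartiles of shorter genes. In the shortest quartile of protein-coding genes (up to 5.67 kb) 14.0% had a doxycycline summit within 50 kb, and in the next quartile (up to 17.2 kb) 17.6% did. The 6 antagonists other than Bmper fall into these quartiles, with 2 in the first and 4 in the second, and all 6 had a doxycycline summit. The ligands in the same quartiles had 1 of 6. Whether gene length bears on the counts by role was not tested.

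**Figure D3:**
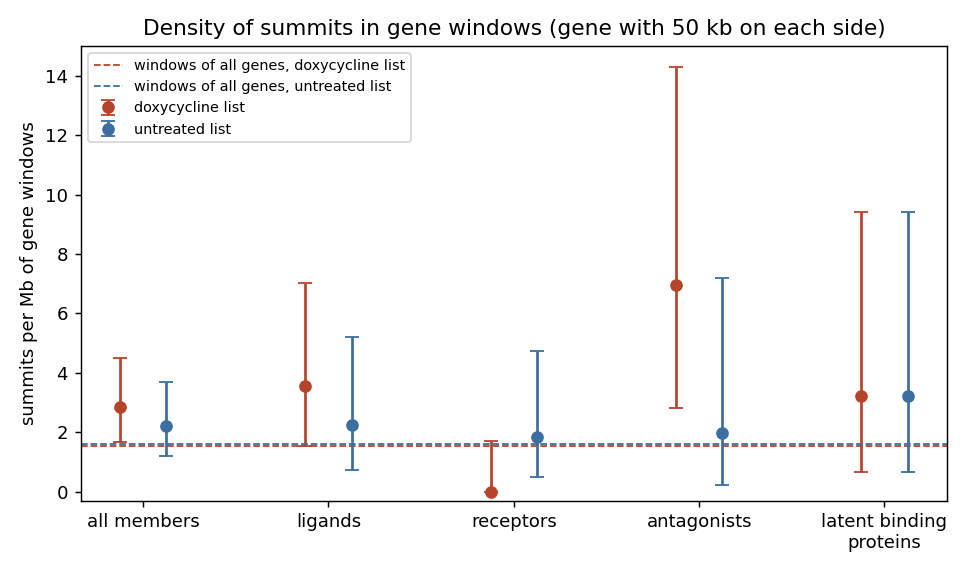
Summits per Mb of gene windows (gene interval with 50 kb on each side) for all members and by role; points are densities, bars exact 95% Poisson intervals, and dashed lines the windows of all protein-coding genes. In the doxycycline list the antagonists have 6.95 summits per Mb and the receptors 0, beside 1.53 in the windows of all genes; the bars cover counting error only and are no test.

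The medians of peak strength near the members lay close to those of each list. The 18 doxycycline peaks had a median fold of 5.76 and a median −log10 q of 4.10, against 5.50 and 3.81 over all 3640 peaks. The 2580 doxycycline peaks in the windows of all protein-coding genes are a more like set, with medians of 5.80 and 4.17. The median pileup of the 18 was 7 fragments, as in the whole list, and 6 of the 18 had 8 or more. The 14 untreated peaks had a median fold of 4.72 and a median pileup of 5 fragments, the same as the whole list. In the doxycycline list 4 of the 18 summits (22.2%) were no more than 1 kb from an end of any protein-coding gene, where 8.65% of all doxycycline summits lay. These were at Tgfb1, Nog, Fstl3 and Ltbp1. In the untreated list 1 of 14 was, the one beside Exosc5, against 1.99% of all. Peaks near members lie within 50 kb of a gene by selection. Of all peaks, 2580 of 3640 in the doxycycline list and 2733 of 4379 in the untreated list do. The shares are therefore over unlike sets, and nothing about the members is read from the contrast.

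**Figure D4:**
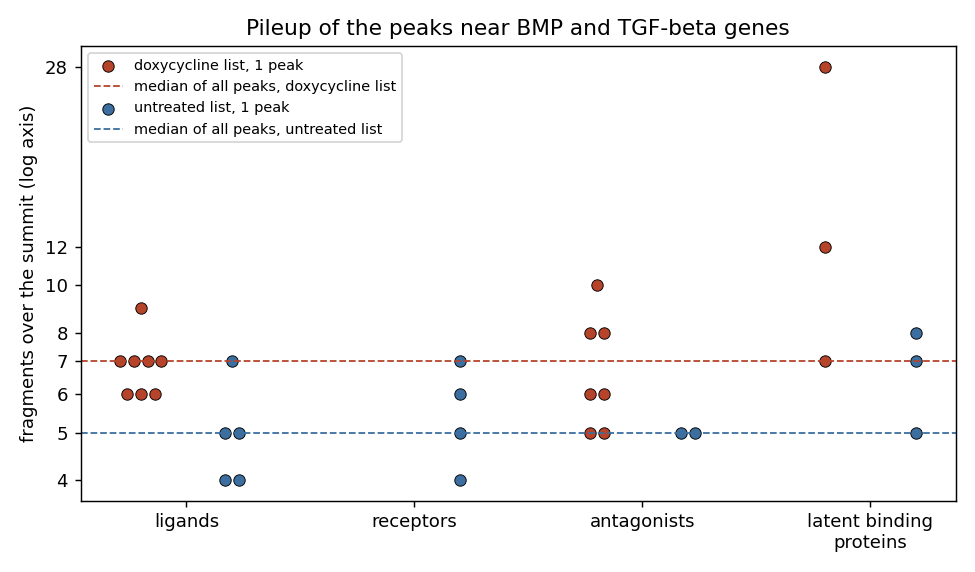
Fragments over the summit (log axis) of each peak within 50 kb of a member, by role and list, with dashed lines at the medians of all peaks, 7 in the doxycycline and 5 in the untreated list. Ligand peaks with doxycycline span 6 to 9 fragments, antagonist peaks 5 to 10, and the latent binding protein peaks 7, 12 and 28.

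Strong peaks were few near the members and few near protein-coding genes in general. With a −log10 q of at least 5, doxycycline summits remained at 6 genes, Bmp7, Nog, Grem1, Fstl3, Ltbp1 and Ltbp4 (16.2%, against 8.42% of all protein-coding genes). The antagonists among them were 3 of 7. In the untreated list Ltbp4 alone remained (against 1.97% of all genes). With at least 10-fold enrichment, Ltbp1 was the only member in the doxycycline list (1.99% of all genes), and the untreated list had none (0.206% of all genes).

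Other genes of the pathway were read from a list of 62 (SMADs, their targets, further ligands, receptors, antagonists, and matrix and protease genes). Summits within 50 kb were found for 22 of them (35.5%) in the doxycycline list and for 8 (12.9%) in the untreated list, beside 20.0% and 18.8% of all genes. Inside the cell, 8 of 14 SMAD and corepressor genes had a doxycycline summit. They were led by Smad3, a receptor-activated SMAD of the TGF-beta branch (12.9-fold, 13.9 kb away), and the inhibitory Smad6 and Smad7. All 4 Id genes, targets of BMP signalling, had one, and 2 of the 4 also had an untreated one.

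The remaining classes were counted in the same way. Of 9 further antagonists, 1 (11.1%) had a doxycycline summit and 1 an untreated one, beside the 6 of 7 and 1 of 7 given above. Of 9 further receptors and coreceptors 2 had a doxycycline summit, Eng, the coreceptor endoglin (10.6-fold, 26.1 kb away), and Acvr1c (5.85-fold, inside the gene). Of 16 further ligands 4 did, led by Amh (6.44-fold) and by Lefty1 and Lefty2, which share 1 peak (5.80-fold), and 0 had an untreated summit. Of 10 matrix and protease genes 3 did, led by Itgb6, a subunit of an integrin that activates latent TGF-beta (13.2-fold, 7.81 kb away), Furin, a proprotein convertase that cleaves TGF-beta precursors (6.39-fold), and Tll1, a protease related to Bmp1 (6.26-fold).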

How the data were processed

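The deposited data were 2 peak lists, 1 per condition, from ChIP-seq of 4 pull-downs and 2 inputs. Titles set the groups. They name GLI3R, although the protocol text speaks of GLI1. The submitters' processing notes list mm10 with MACS2 2.1.1, Bowtie2 2.3.2 and SAMtools 1.5. Their settings, the control and any pooling of replicates: not given in the sources used here. For each peak the authors deposited a fold (ratio) at the summit, a −log10 p, a −log10 q, and a score that is 10 times −log10 q without decimals and was not used. Fragment totals are unknown.

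Rows with identical intervals became 1 peak at the best summit (3725 to 3640 doxycycline, 4428 to 4379 untreated). Pileups were worked back from fold and −log10 p under a Poisson model, within 0.01 of −log10 p for 99.75% and 99.84% of peaks. On data simulated under the same model this step recovered the pileup of 99.95% of 2000 peaks. The simulated pileups did not go down to the smallest of the untreated list. The distance step recovered 100% of 500 summits planted at or outside the ends of genes. Both are checks of the arithmetic and not of the model. Distances run to the GRCm38.p6 gene interval, 0 inside, and proximity within 50 kb assigns no peak to a gene. Every member is named, with all peaks in range. Of the 62 further genes, counts per class and up to 3 genes by −log10 q are given, except for 1 gene that is not reported here. The members, lists and alternatives (13 other distances, assignments and thresholds) were chosen with earlier results of these data known. The tools were matplotlib 3.10.9, scipy 1.17.1, pandas 2.3.3 and numpy 2.4.6 in Python 3.11.15.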

Additional observations from a re-analysis of the deposited data

How the results depend on the processing

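No paired analysis was possible because the values are 1 peak list for each condition, so no replicate could be left out either. Under 10 of 13 alternatives the 15 members with a doxycycline summit stayed within 1.5 times that count, and under 8 of 13 the 10 with an untreated summit did. Fewer peaks pass a stricter threshold by construction, and more a wider distance. Where −log10 q was at least 5, there were 6 genes and 6 summits in the doxycycline list and 1 and 1 in the untreated list. With at least 10-fold enrichment these were 1 and 1, and 0 and 0. In the top 1000 peaks of each list they were 6 and 6, and 4 and 4 (7.03% and 4.76% of all genes had such a summit). With a pileup of at least 7 the doxycycline summits fell from 18 to 11, and the untreated list had 4 genes (4.02% of all) and 4 summits. Within 100 kb there were 30 doxycycline summits, and 17 genes (30.2% of all) and 24 summits in the untreated list. Within 10 kb there were 8 untreated summits. The motif, with 1 mismatch allowed, was in 1 promoter in place of 0. Receptors with a doxycycline summit stayed at 0 under 12 of 13 alternatives and came to 3 within 100 kb (Bmpr2, Acvr1 and Tgfbr3), where 31.3% of all genes had one. Antagonists with a doxycycline summit ranged from 0 (at least 10-fold, 1.99% of all genes) to 6 (within 50 kb, 20.0%). Those with an untreated summit ranged from 0 (at least 10-fold among others, 0.206%) to 4 (within 100 kb, 30.2%). The 4 were Nog, Chrd, Fstl3 and Bmper. Antagonists with a summit in the doxycycline list alone fell from 6 within 50 kb to 3 within 100 kb. The shares of all genes were 15.1% and 21.1%. Pileups begin at 4 or 5 fragments, so at a gene without a peak a weaker signal and none cannot be told apart.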

Other observations

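Several peaks counted for a member also lay within 50 kb of genes of other functions. The doxycycline peak near Bmp7 was within 50 kb of Rae1, an RNA export factor, and Spo11, which makes the meiotic double-strand breaks. The peak inside Gdf5 was within 50 kb of 3 further protein-coding genes, among them Uqcc1 and Cep250. Both doxycycline peaks at Tgfb1 were within 50 kb of 6 further genes, among them B9d2, a component of the primary cilium's transition zone. By contrast, the peaks at Bmp3, Bmp6, Gdf6, Tgfb2, Nog, Fst, Bambi and Ltbp1 had no second protein-coding gene within 50 kb.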
